A study of Mus musculus with 12 samples.

Results

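The genes described are 34 genes of glucose uptake, glycolysis and lactate transport, listed by name, among 16450 genes or unnamed probes that could be tested in mouse quadriceps muscle. A probe counted for a member where the gene name in the scanner output equalled that member, and the older name Pkm2 stands for pyruvate kinase M. All 34 members were found, on 64 probes and 91 spots, and every one had a probe well above background on all 12 arrays. The members comprise 5 glucose transporters, 2 Rab GTPase-activating proteins of the GLUT4 pathway, 2 hexokinases, 5 enzymes around the phosphofructokinase step, 4 bifunctional PFKFB enzymes, 10 enzymes of lower glycolysis, 2 lactate dehydrogenases, 2 glycerol 3-phosphate dehydrogenases and 2 monocarboxylate transporters.

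RNA came from the quadriceps of male C57BL/6J mice aged 13 weeks, with no genetic change named in the labels. The exercised group of 6 mice had run on a motorized treadmill as training over 4 weeks, and their muscle was collected 3 hours after the final run. The 6 sedentary mice were the controls. Each mouse gave 1 one-colour array, so a difference between the groups joins the 4 weeks of training with the last bout, and the 2 cannot be told apart. The labels also number the animals within sets 1 and 2, whose meaning is not given in the sources used here. A name such as s1m5 stands for set 1, animal 5. The exercised mice of set 1 were on slide 3 and those of set 2 on slides 1 and 2. Among exercised mice, set and slide therefore cannot be told apart.

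Glucose enters a muscle fibre through transporters in its membrane, and contraction and insulin both bring the transporter GLUT4 there from inner vesicles. Hexokinase traps the sugar, phosphofructokinase commits it to glycolysis, and the enzymes downstream turn it into pyruvate. Lactate dehydrogenase converts pyruvate to lactate and back, and monocarboxylate transporters carry lactate across the membrane, so fast glycolytic fibres export it and slow oxidative fibres take it up.

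None of the 34 members differed between exercised and sedentary muscle at an adjusted p below 0.05 in limma, whose p-values were adjusted by Benjamini-Hochberg over all 16450 genes tested. Over all genes, 604 passed, which is 3.67% of those tested, 299 of them higher (1.82%) and 305 lower (1.85%) after exercise. With slide as a block, 2.13% of genes and again no member passed. At an unadjusted p below 0.05 there were 5 members of 34 (14.7%), against 16.2% of all genes. No member had groups that did not overlap, which 3.02% of all genes had. The median log2 difference, exercised minus sedentary, was -0.07 over the members and -0.028 over all genes, with 12 members (35.3%) and 42.1% of genes above 0. The 95% interval of the difference lay within 0.5 of 0 on the log2 scale for 26 of the 34 members.

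**Figure D1:**
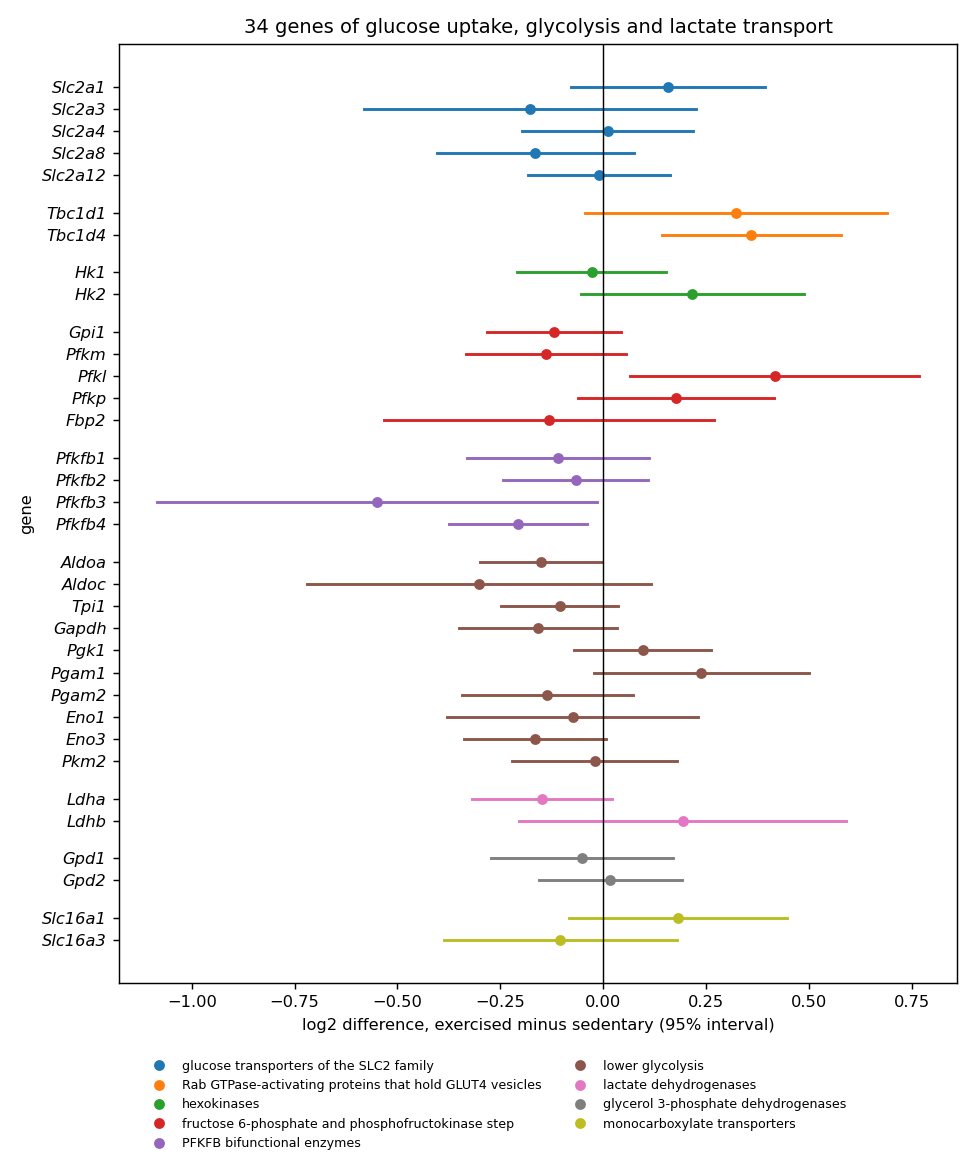
Log2 difference, exercised minus sedentary (horizontal axis), for each of the 34 genes (vertical axis), with points for the estimate and lines for the 95% interval from limma, coloured by role. The points run from -0.55 for Pfkfb3 to 0.42 for Pfkl, and all but 5 lines cross 0.

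On the 12 arrays the 75th percentile of the gene probes' signal lay between 167 and 237 units, or 7.39 and 7.89 on the log2 scale. Between 21707 and 25229 gene probes per array were well above background. No gene spot was saturated. All 8 slow fibre markers and all 8 fast fibre markers were well above background on all 12 arrays, among them Myh7 and Myh4, the slow and the fastest myosin heavy chains, so the muscle label held against its markers. None of these 16 passed at an adjusted p below 0.05. At an unadjusted p below 0.05 in limma were 3 of the 8 fast fibre and 0 of the 8 slow fibre markers. The slow fibre markers had a median log2 difference of 0.41, with a summed level, given as the mean log2 deviation from the 12-array mean, from -0.52 to 1.20 in exercised and from -1.17 to 0.68 in sedentary muscle. The fast fibre markers had a median of -0.18, with a summed level from -0.25 to 0.08 in exercised and from -0.05 to 0.24 in sedentary muscle. Of 10 endothelial markers 3 were called lower: Kdr, a receptor of vascular growth factor, at -0.77 ± 0.13 (SE, adjusted p = 0.0067), Egfl7 at -0.57 ± 0.13 (adjusted p = 0.027) and Cldn5, a tight junction protein, at -0.87 ± 0.19 (adjusted p = 0.027). With slide as a block the adjusted p was 0.074 for Egfl7 and 0.071 for Cldn5, and leaving out 1 array, such as sedentary s2m4 (0.064 and 0.061), also ended both calls. The other 6 marker lists, of red cells, fat, brown fat, leukocytes, nerve and tendon, held no called gene and had medians from -0.15 to 0.54. Single markers reached 4.35 in the brown fat list and 1.11 in the tendon list. At an unadjusted p below 0.05 in limma were 4 of 8 tendon, 4 of 6 nerve, 2 of 6 brown fat and 1 of 6 leukocyte markers. So were 5 of the 10 endothelial markers, the 3 called ones included. Of 4 red cell and 8 fat markers 0 were. The summed brown fat level ran from -0.94 to 1.28 in exercised and from -1.09 to 0.56 in sedentary muscle. In whole muscle, fewer cells of a type and less RNA per cell cannot be told apart.

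Slc2a4 encodes GLUT4, the transporter that insulin and contraction move to the membrane. Its log2 level, relative to each array's 75th percentile, ran from 7.25 to 7.64 in exercised muscle with a median of 7.51, and from 7.21 to 7.74 in sedentary muscle with a median of 7.48. The ranges lay over each other, and the log2 difference of 0.01 ± 0.10 (SE) had a 95% interval from -0.20 to 0.22. The interval leaves room for a change of up to about 0.2 on the log2 scale either way. Within the labelled sets the difference was 0.27 in set 1 and -0.18 in set 2. That contrast between sets was chosen after the data were seen. It had an unadjusted p of 0.018 and an adjusted p of 0.54 in limma, so it did not pass.

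Slc2a1, which encodes GLUT1, the transporter of basal uptake that is also strong in endothelium, spanned 0.97 to 1.63 in exercised muscle (median 1.26) and 1.01 to 1.27 in sedentary muscle (median 1.16). The exercised arrays spread the wider, with an SD of 0.26 against 0.09, and the groups overlapped. Its log2 difference was 0.16 ± 0.11 (SE, adjusted p = 0.54). The 10 endothelial markers had a summed level from -0.30 to -0.04 in exercised and from -0.06 to 0.31 in sedentary muscle, and their part in the value of Slc2a1 was not tested. The differences of Slc2a3 (GLUT3, a high-affinity transporter best known from neurons), Slc2a8 (GLUT8, which sits mainly on inner membranes) and Slc2a12 (GLUT12) were -0.18, -0.16 and -0.01. None of the 5 transporters was called. Slc2a3 rested on 1 probe, since its other probes were not well above background on any array.

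Tbc1d4 came nearest to the threshold among the members. It encodes AS160, which keeps GLUT4 vesicles inside the fibre until Akt or AMPK phosphorylates it. On its main probe the exercised arrays read from -0.61 to -0.08 (median -0.41) and the sedentary arrays from -0.97 to -0.55 (median -0.71). A single pair of arrays crossed: exercised s1m5, the lowest of its group, lay under sedentary s2m2, the highest of its group. The log2 difference was 0.36 ± 0.10 (SE), a 1.28-fold higher level, with a 95% interval from 0.14 to 0.58. Its unadjusted p was 0.0034 and its adjusted p 0.070, so it was not called at 0.05. The difference stayed above 0 within each of 3 slides (0.25, 0.41 and 0.37) and within sets 1 and 2 (0.25 and 0.45).

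The probes of Tbc1d4 differ in place and brightness, so the 2 brighter ones are shown 5′ to 3′ as the scanner output gives them, in lower case throughout. The first lies at chr14:101878355-101878414 on the minus strand of mm9, and the second spans chr14:101864965-101876239, which is longer than its 60 bases because it joins exons.
Tbc1d4, probe A_52_P381430: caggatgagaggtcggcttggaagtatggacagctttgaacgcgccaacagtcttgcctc
Tbc1d4, probe A_51_P201390: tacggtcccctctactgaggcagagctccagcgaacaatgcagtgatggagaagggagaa
The first gave the log2 difference of 0.36 above and the second 0.36 ± 0.12 (SE), without 1 array whose spot was marked as an outlier. The dimmest of the 3 probes gave 0.19 ± 0.16. All 3 lay above 0, and the first 2 were close in size. These probes read the RNA of the same mice and add no animals.

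Tbc1d1, the paralogue of Tbc1d4 and the better known of the pair for contraction, read from -0.79 to 0.09 in exercised muscle (median -0.35) and from -1.06 to -0.35 in sedentary muscle (median -0.55). The groups overlapped over most of their ranges. The log2 difference was 0.32 ± 0.17 (SE, adjusted p = 0.38), and a further probe gave 0.33 ± 0.18. Both Rab GTPase-activating proteins thus had estimates above 0 that did not pass the test.

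Hk2, the hexokinase of insulin-responsive and exercised muscle, read from 6.11 to 6.53 in exercised muscle (median 6.36) and from 5.79 to 6.52 in sedentary muscle (median 6.14). The 3 sedentary arrays of set 1 read below every exercised array, while the 3 sedentary arrays of set 2 read among them. The log2 difference was 0.22 ± 0.12 (SE), with a 95% interval from -0.05 to 0.49 (adjusted p = 0.44). Hk1, the housekeeping hexokinase, had a difference of -0.03 ± 0.08 (SE). Hk1 had 6 probes, of which 2 were not well above background on any array, and the other 4 gave differences from -0.14 to 0.65, none of them called.

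At the phosphofructokinase step, Pfkm, the muscle form, had a log2 difference of -0.14 ± 0.09 (SE, adjusted p = 0.51). Pfkl, the liver form, read from -0.04 to 0.75 in exercised muscle (median 0.34) and from -0.34 to 0.32 in sedentary muscle (median -0.12). Its exercised arrays lay mostly higher, with 4 of 6 above all sedentary arrays. Its difference of 0.42 ± 0.16 (SE), or 1.34-fold, was the highest of all the members, with a 95% interval from 0.07 to 0.77, an unadjusted p of 0.024 and an adjusted p of 0.20. Pfkp, the platelet form, had a difference of 0.18 ± 0.11 on its brightest probe and -0.07 ± 0.14 on a dimmer one. On their brightest probes the muscle form and both others thus had estimates on opposite sides of 0, and the difference between them was not tested. Gpi1, the isomerase before this step, and Fbp2, the muscle fructose bisphosphatase that runs it backwards, had differences of -0.12 ± 0.08 and -0.13 ± 0.18 (SE).

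The 4 PFKFB enzymes make and break fructose 2,6-bisphosphate, the strongest activator of phosphofructokinase. All 4 had estimates below 0, from -0.55 to -0.07, and none was called. Pfkfb3, the form that favours synthesis and is induced by hypoxia, read from 5.54 to 6.20 in exercised muscle (median 5.82) and from 5.57 to 7.14 in sedentary muscle (median 6.42). The exercised arrays kept close together, with an SD of 0.24, and the sedentary arrays did not, with an SD of 0.62. Sedentary s1m6, s2m2, s2m4 and s1m5 read 7.14, 6.86, 6.63 and 6.22, so 4 of the 6 lay above every exercised array, s1m5 by a narrow margin. Sedentary s1m1 and s2m5, at 5.77 and 5.57, lay within the exercised range. The log2 difference was -0.55 ± 0.25 (SE), a 1.46-fold lower level, with a 95% interval from -1.08 to -0.015, an unadjusted p of 0.045 and an adjusted p of 0.29.

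Pfkfb3 was measured by 3 probes at different places in the transcript. The 2 that join exons, on the minus strand of mm9 at chr2:11404189-11405602 and chr2:11411973-11414235, are shown because the same arrays stood out on each of them.
Pfkfb3, probe A_52_P362917: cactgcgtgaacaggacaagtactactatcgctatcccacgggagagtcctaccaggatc
Pfkfb3, probe A_52_P138126: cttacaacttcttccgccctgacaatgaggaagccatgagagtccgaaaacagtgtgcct
These gave log2 differences of -0.56 ± 0.26 and -0.57 ± 0.26 (SE), beside -0.55 ± 0.25 for the brightest probe. On each of the 3 probes the highest arrays were sedentary s1m6, s2m2 and s2m4. The probes share the RNA of each mouse, so they add no animals.

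**Figure D2:**
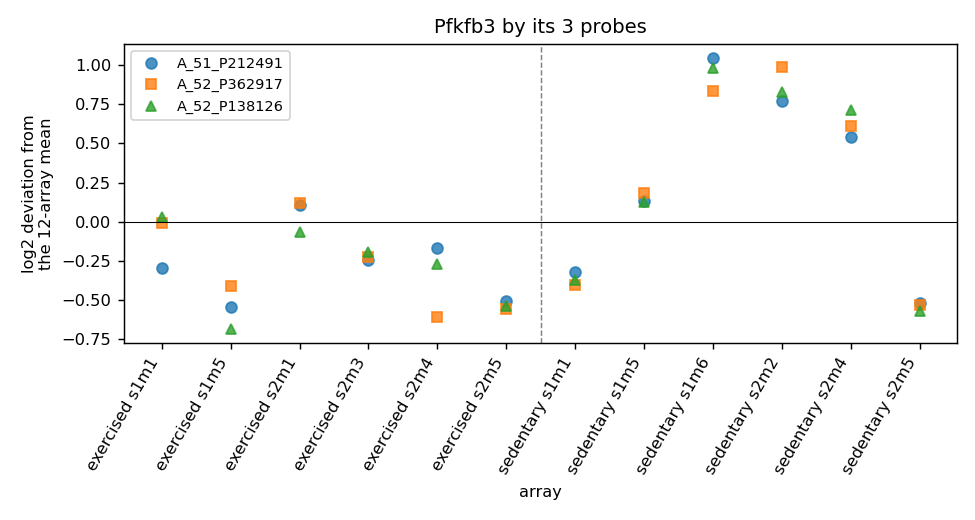
Log2 deviation of each of the 3 Pfkfb3 probes from its own 12-array mean (vertical axis) on each array (horizontal axis), with the exercised arrays to the left of the dashed line and the sedentary arrays to the right. The 3 probes move together, and the sedentary arrays s1m6, s2m2 and s2m4 stand above the rest on each.

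Pfkfb4, known from testis and tumours, read from 4.65 to 4.87 in exercised muscle (median 4.78) and from 4.81 to 5.18 in sedentary muscle (median 4.95). Its groups met in a narrow band. The log2 difference was -0.21 ± 0.08 (SE), with a 95% interval from -0.38 to -0.04, an unadjusted p of 0.020 and an adjusted p of 0.19. Pfkfb1, the liver and muscle form, and Pfkfb2, the heart form, had differences of -0.11 ± 0.10 and -0.07 ± 0.08 (SE). For Pfkfb2 a pair of dimmer probes gave 0.20 and 0.19, so its probes did not share a direction.

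**Figure D3:**
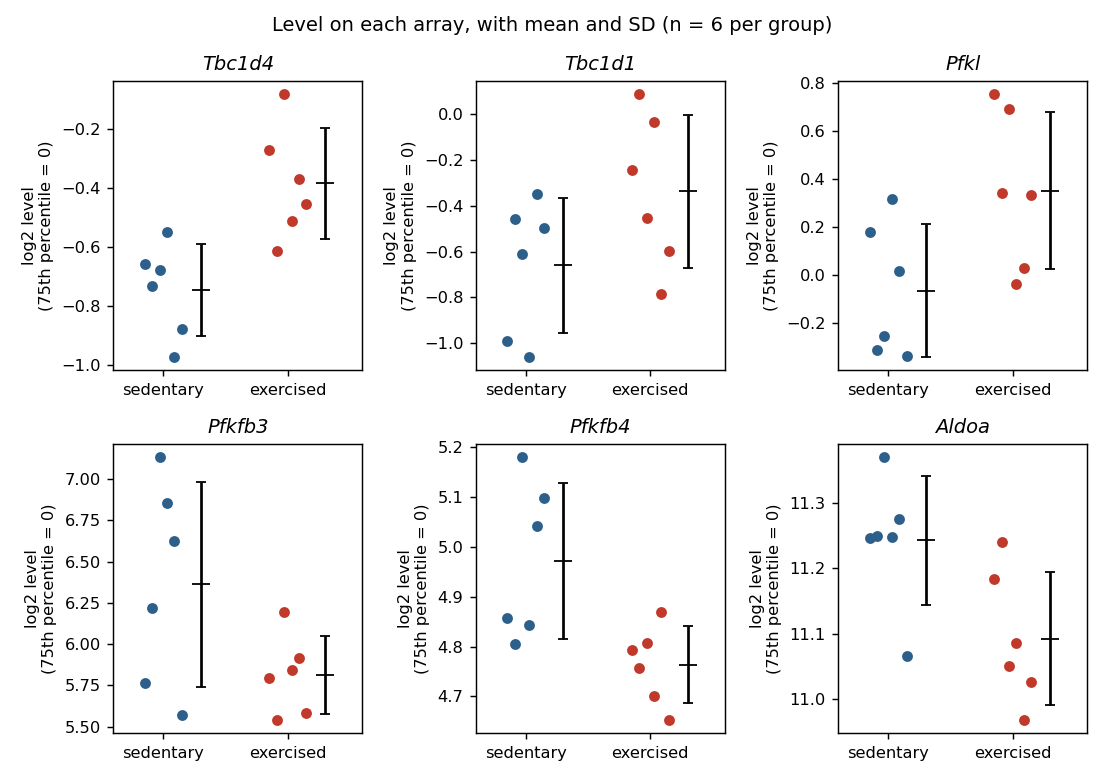
Log2 level of 6 genes relative to each array's 75th percentile (vertical axes) in sedentary and exercised muscle (horizontal axes). Each point is 1 mouse and the bars are the mean and SD of 6 mice; the groups overlap in every panel, least so for Tbc1d4.

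The enzymes that carry the bulk of muscle glycolysis sat close together. The 10 taken here are the main muscle form of each step from Gpi1 to Ldha, grouped with their values known: Gpi1, Pfkm, Aldoa, Tpi1, Gapdh, Pgk1, Pgam2, Eno3, Pkm2 and Ldha. Of these, 9 had an estimate below 0 and the median log2 difference was -0.14, with a range from -0.16 to 0.10. None was called. The sign depended on the scaling: with quantile scaling, 5 of the 10 were below 0 and Aldoa was at 0, the median was -0.003 and Pfkm, Gapdh and Pkm2 changed sign. So these data do not settle a direction for this group.

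Aldoa, the muscle aldolase, read from 10.97 to 11.24 in exercised muscle (median 11.07) and from 11.07 to 11.37 in sedentary muscle (median 11.25). Sedentary s2m5 lay among the exercised arrays, and the other 5 sedentary arrays lay above all of them. Its log2 difference was -0.15 ± 0.07 (SE, unadjusted p = 0.047, adjusted p = 0.30). Its other probe, which shares most of its bases with the main one, gave -0.18 ± 0.07. Its main probe held the same rank on all 12 arrays, which quantile scaling turns into the same value, so the difference of Aldoa was 0 under that scaling. Eno3, the muscle enolase, had -0.16 ± 0.08 (adjusted p = 0.34) and Gapdh, the dehydrogenase that makes NADH, had -0.16 ± 0.09 (adjusted p = 0.42). Under quantile scaling these became -0.0050 and 0.0034.

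On single arrays the 10 enzymes often lay on the same side of their 12-array means: all 10 were below it in exercised s2m3 and none in sedentary s1m6. Their median deviation from the 12-array mean was 0.11 and 0.07 in the exercised mice of set 1 and between -0.179 and -0.085 in the 4 exercised mice of set 2. Among the sedentary mice it was highest at 0.14 and 0.13 in s1m6 and s2m2 and lowest at -0.05 in s1m5. Within set 1 the median difference of the 10 was 0.08 and within set 2 it was -0.21, and within slides 1, 2 and 3 it was -0.22, -0.12 and 0.04. The contrast of the exercise difference between sets was chosen after the data were seen. It passed the unadjusted threshold in limma for 7 members of 34 (20.6%) and 1441 of all genes (8.76%). At the adjusted threshold it passed for 0 members and 0 genes. The exercised mice of set 1 were all on slide 3 and those of set 2 on slides 1 and 2. The sedentary mice of set 1 were on slides 1, 2 and 3 and those of set 2 on slides 1 and 3. The contrast was fitted without a term for slide, and the part of slide in it was not tested. The summed levels of the slow and fast fibre markers given above also varied among these arrays, and each enzyme is set against the slow fibre score further on. The 75th percentile used for scaling varied too. Its log2 was 7.49 and 7.54 in the exercised mice of set 1 and from 7.69 to 7.85 in those of set 2. In sedentary mice it ran from 7.39 in s1m6 to 7.89 in s2m5. Its part in the enzymes' values was not tested.

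**Figure D4:**
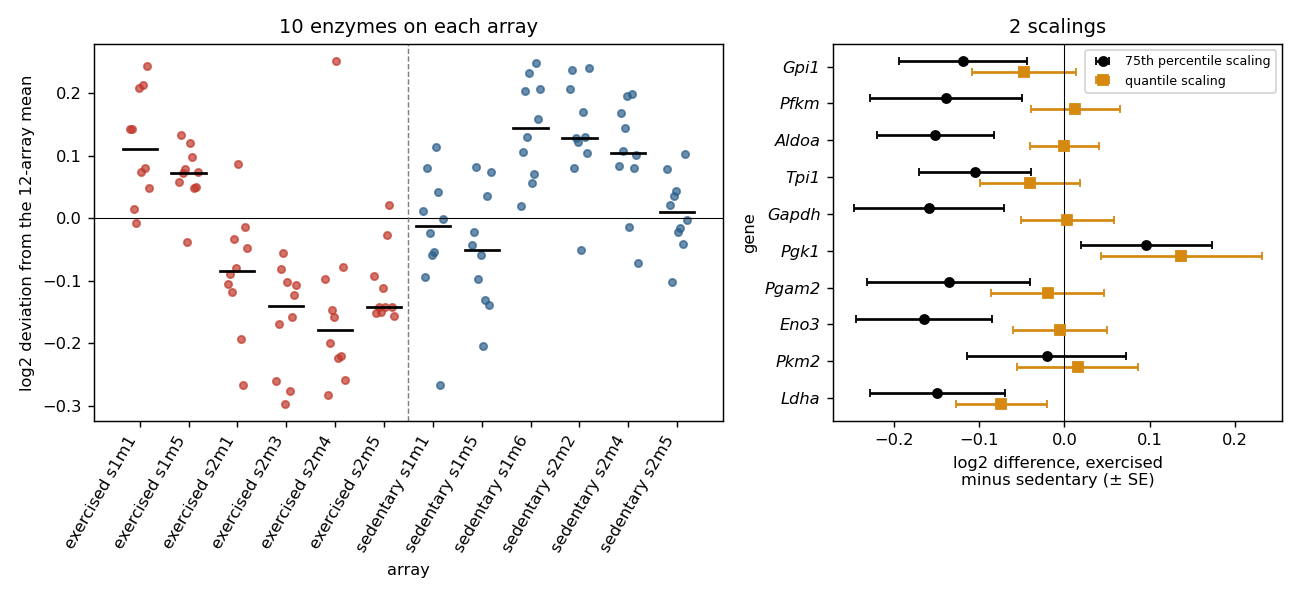
Left, log2 deviation from the 12-array mean (vertical axis) of 10 enzymes on each array (horizontal axis), 1 point per enzyme, with a black bar for their median, exercised mice in red and sedentary mice in blue. Right, log2 difference of each enzyme with its SE (horizontal axis) under 75th percentile scaling and under quantile scaling: the median moves from -0.14 to -0.003.

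The other forms in lower glycolysis were dimmer on their probes. Pgam1, the phosphoglycerate mutase of most tissues, read from 2.45 to 3.19 in exercised muscle (median 2.76) and from 2.28 to 2.79 in sedentary muscle (median 2.56), and the groups overlapped. Its log2 difference was 0.24 ± 0.12 (SE, adjusted p = 0.36), while that of Pgam2, the muscle form, was -0.14 ± 0.10. Eno1, the enolase of most tissues, had -0.07 ± 0.14 and Aldoc, the brain aldolase, -0.30 ± 0.19 (SE). The mean levels of Aldoc, -3.58 in exercised and -3.28 in sedentary muscle, were the lowest of any member. Its other probe was not well above background on any array. Pkm2 had -0.02 ± 0.09 on its main probe, -0.15 ± 0.12 on a similar one and -0.33 ± 0.18 on a dim one. Pgk1, phosphoglycerate kinase, had 0.10 ± 0.08 (SE). The scanner output places both Pgk1 probes on chromosome 3 although the gene lies on chromosome X, so its signal may include a near-identical copy and is uncertain.

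Ldha and Ldhb encode the muscle and heart subunits of lactate dehydrogenase. Ldha read from 9.001 to 9.33 in exercised muscle (median 9.18) and from 9.19 to 9.50 in sedentary muscle (median 9.30), with a log2 difference of -0.15 ± 0.08 (SE, adjusted p = 0.39). Ldhb read from 6.35 to 6.89 in exercised muscle (median 6.70) and from 5.85 to 7.01 in sedentary muscle (median 6.49), with a difference of 0.19 ± 0.18 (SE, adjusted p = 0.68). Both pairs of groups overlapped. The sedentary mice spread the more for Ldhb, with an SD of 0.45 against 0.19.

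Because glycolytic and oxidative fibres differ in these enzymes, each member was set against the slow fibre score of the same arrays, with group means removed from both (12 arrays, two-sided permutation test within groups, Benjamini-Hochberg over 34 members). No member passed an adjusted p of 0.05. The nearest was Ldhb, with Pearson's r = 0.79 (permutation p = 0.0087, adjusted p = 0.27) and Spearman's rho = 0.85 (permutation p = 0.0050, adjusted p = 0.17). Sedentary s1m6 and s2m2 had the lowest scores and were the 2 arrays farthest from the median score. Without them r was 0.66 for Ldhb when the group means of all 12 arrays were kept. Of all the members 25 had r below 0 and 9 above 0, and all 10 muscle enzymes above were below 0, with Ldha at r = -0.59 (permutation p = 0.060, adjusted p = 0.27) and rho = -0.52 (permutation p = 0.10, adjusted p = 0.37). For Ldha r was -0.34 without those 2 arrays, again with the group means of all 12 arrays. With quantile scaling Ldhb passed, at r = 0.85 (permutation p = 0.0012, adjusted p = 0.042), while Ldha had r = -0.29 (permutation p = 0.41, adjusted p = 0.63). Under that scaling 19 members and 7 of the 10 enzymes had r below 0, Tpi1 lay at 0.47 and Pgk1 at 0.09, and Aldoa had no spread. With default normexp, a background correction 8 members and 0 of the 10 enzymes had r below 0, with Ldha at 0.75 (permutation p = 0.0071, adjusted p = 0.017), and with normexp fitted on the negative control spots 22 members and 9 enzymes did. Under the main scaling, again without s1m6 and s2m2 but with group means taken anew, Ldhb had r = 0.57 (permutation p = 0.081, adjusted p = 0.90).

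**Figure D5:**
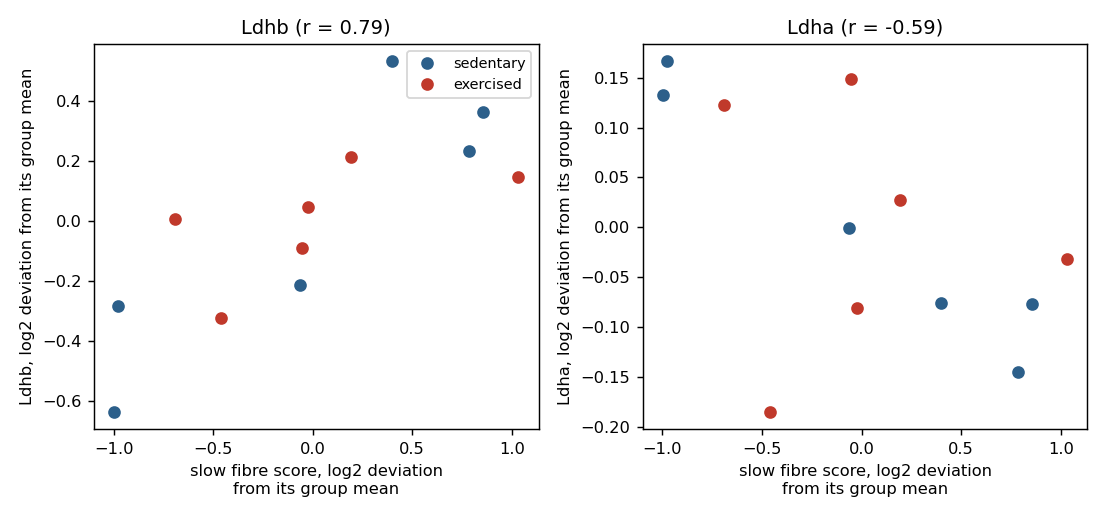
Log2 level of Ldhb (left) and Ldha (right) as the deviation from the group mean (vertical axes) against the slow fibre score as the deviation from its group mean (horizontal axes), 1 point per mouse, 6 sedentary in blue and 6 exercised in red. Ldhb climbs with the score at r = 0.79 and Ldha runs the other way at r = -0.59 (0.75 with default normexp), and neither passed after adjustment.

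Lactate is carried by Slc16a1, the transporter MCT1 of oxidative fibres, and Slc16a3, the transporter MCT4 of glycolytic fibres. Slc16a1 read from 3.10 to 3.48 in exercised muscle (median 3.36) and from 2.86 to 3.49 in sedentary muscle (median 3.10), with a log2 difference of 0.18 ± 0.12 (SE, adjusted p = 0.53). Its other probes gave 0.15 and 0.30. Slc16a3 had a difference of -0.10 ± 0.13 (SE, adjusted p = 0.77), and within the labelled sets it was 0.22 in set 1 and -0.33 in set 2. Gpd1 and Gpd2, the cytosolic and mitochondrial dehydrogenases of the glycerol phosphate shuttle, had differences of -0.05 ± 0.10 and 0.02 ± 0.08. Gpd1 had the smallest p of any member for the contrast between sets, at 0.28 in set 1 and -0.24 in set 2 (unadjusted p = 0.0032, adjusted p = 0.52).

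Promoter windows of 300 bases, 250 before and 50 after each start, were taken from RefSeq (GRCm38.p6) for 31 of the 34 members, 50 windows in all. Slc2a3, Slc2a4 and Gpd1 were not matched. The letters ACGTG or GCGTG, the core of sites for hypoxia-inducible factors, were sought on both strands. Of the 50 windows 36 (72.0%) held one or the other, against 43.8% of all 32851 windows. Some windows of the same gene overlap, as for Aldoa and Eno1, and share their matches. Counted by gene, 26 of 31 members had a match, and that share was not taken over all genes. The windows were not matched for base content. CACGTG, an E-box that contains ACGTG, was in 6 of the members' 50 windows and 7.2% of all. The MEF2 motif was in 2 of the 50, those of Pgam2 and Pfkfb1, or 4.0% against 1.9%. CCAAT was in 36.0% against 37.4%. The 2 windows of Pfkfb3, the member with the widest difference, are printed 5′ to 3′ on the minus strand with the matches to ACGTG or GCGTG on either strand in capitals.
Pfkfb3, chr2:11502041-11502340: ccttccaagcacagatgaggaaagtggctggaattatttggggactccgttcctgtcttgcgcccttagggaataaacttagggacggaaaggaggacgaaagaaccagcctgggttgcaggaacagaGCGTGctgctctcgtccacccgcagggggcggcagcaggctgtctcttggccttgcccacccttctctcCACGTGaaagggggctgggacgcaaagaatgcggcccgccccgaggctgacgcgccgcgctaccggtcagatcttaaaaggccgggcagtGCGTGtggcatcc
Pfkfb3, chr2:11553880-11554179: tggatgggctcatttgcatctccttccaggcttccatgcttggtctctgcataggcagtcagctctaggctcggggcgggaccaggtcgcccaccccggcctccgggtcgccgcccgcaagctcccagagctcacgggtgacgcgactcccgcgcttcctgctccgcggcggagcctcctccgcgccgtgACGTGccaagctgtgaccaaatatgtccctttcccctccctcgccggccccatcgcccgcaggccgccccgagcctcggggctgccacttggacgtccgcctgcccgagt
A match describes letters in the window and is no evidence of a bound factor in these mice.

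Genes around the pathway came from 7 lists, of which 127 genes were measured and 6 were called, all of them higher. Over all genes tested 604 of 16450 were called (3.67%), and the members' own share called was 0 of 34. The lists were chosen with earlier results of these data known. Of 25 transcription regulators 2 were called, with a list median of -0.04: Ppargc1a, the coactivator PGC-1α of mitochondrial and GLUT4 genes, at 1.88 ± 0.21 (SE, adjusted p = 0.00039), and Foxo1, the fasting and insulin-sensitive factor, at 1.82 ± 0.12 (adjusted p = 2.8e-05). Both groups were fully apart for each of these. Of 19 glycogen genes 1 was called: Ppp1r3c, a subunit that brings protein phosphatase to glycogen, at 1.00 ± 0.18 (adjusted p = 0.0084), with a list median of 0.01. Gbe1, the branching enzyme, followed at 0.40 ± 0.10 (adjusted p = 0.052). Of 8 genes of the malate-aspartate shuttle Got1, the cytosolic aspartate aminotransferase, was called at 0.35 ± 0.07 (adjusted p = 0.013, or 0.052 without the filter on dim probes), with Mdh1 at 0.15 ± 0.08 (adjusted p = 0.43) and a list median of 0.07.

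Of 23 genes of GLUT4 traffic 1 was called: Lnpep, the aminopeptidase that travels in the same vesicles as GLUT4, at 0.43 ± 0.08 (SE, adjusted p = 0.0094), with its 6 exercised arrays above the 6 sedentary ones and a list median of 0.01. With normexp fitted on the arrays' negative control spots, Lnpep had 0.27 and an adjusted p of 0.069. Txnip, which holds back glucose uptake, had -0.56 ± 0.16 (adjusted p = 0.079). Of 19 genes of the branches from glycolysis Pgm3, of the hexosamine pathway, was called at 0.39 ± 0.08 (adjusted p = 0.021, 0.074 once slide was a term, 0.23 with that correction and 0.052 without sedentary s2m4), with Gfpt2 of the same pathway at 0.31 ± 0.10 (adjusted p = 0.10) and a list median of 0.06. No gene was called among 16 of pyruvate entry, where Pdk2, a kinase that inhibits pyruvate dehydrogenase, had -0.19 ± 0.10 and Dld, a subunit of that complex, 0.12 ± 0.07. Nor was one called among 17 relatives of the members from other tissues, where Bpgm, the bisphosphoglycerate mutase of red cells, had -0.30 ± 0.08 (adjusted p = 0.063) and Eno2, the neuronal enolase, -0.47 ± 0.21 (adjusted p = 0.28). The list medians of these last 2 were 0.02 and -0.05.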

How the data were processed

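Total RNA of 12 mice was labelled with Cy3 and hybridised to 1 Agilent array each. Per the file headers, the authors read the spots with Feature Extraction 10.5.1.1 (the submitters' processing notes name 9.1) and deposited each spot's intensity on a linear scale, with background subtracted and probes annotated on mm9. Their deposited table holds the same intensity values, within 0.1% for 100.0% of single-spot probes.

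From these, log2 of the processed signal was taken, outlier-marked and control spots were dropped, and spots of a probe were averaged. Levels are relative to the 75th percentile of each array's gene probes. Probes well above background on 6 or more arrays were retained (22916 of 41174), and each gene is given by its brightest kept probe. Groups were compared with limma 3.58.1 in R 4.3.3, two-sided, with Benjamini-Hochberg adjustment over all genes and a threshold of 0.05. Permutation tests used 100000 resamples. The programs were tested on simulated data.

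All 34 members are named; of the other lists, every called gene and the 2 of smallest p in each list, and of the markers the fibre markers' summed levels and every called marker. Myh7 and Myh4 are named as checks of the tissue. The members and lists were chosen with earlier results of these data known. Alternatives changed the scaling, background, filter, probe rule, variance model, slide or set, and left out each array.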

Additional observations from a re-analysis of the deposited data

How the results depend on the processing

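No member was called under any of the 34 alternatives at an adjusted p below 0.05, and with the threshold at 0.10 there was 1, Tbc1d4, among 1011 genes and 11 context genes. The 604 genes called became 313 with normexp on the negative controls (chosen after seeing the data), 317 without the filter on dim probes, 350 with slide as a block, 0 within slide 1, 8 within slide 2, 0 within slide 3, 0 within set 1 and 36 within set 2. Default normexp, whose background estimate fell below -500 on 4 of the 12 arrays, gave 0 genes, 0 context genes, a member median of 0.123 and 25 members correlated with the slow fibre score, against 1 (Ldhb) with quantile scaling and 0 otherwise. With every probe tested by itself, 14 of 217 context probes were called, a count of probes and not of genes. The 6 context genes called became 0 within each slide and within set 1, and 1 within set 2. The members' median of -0.07 became -0.153, 0.0315 and 0.0526 within slides 1, 2 and 3, and 0.112 and -0.174 within sets 1 and 2; the replicate SD was 0.080. Members whose groups did not overlap numbered 21, 17 and 16 within the slides (61.8%, 50% and 47.1%, against 52.3%, 47.9% and 47.5% of genes) and 14 and 9 within the sets (41.2% and 26.5%, against 30.1% and 15%), where groups hold 1 to 4 arrays. Mice of both groups share 4 numbers, and their deviations correlated at 0.15, -0.19, 0.12 and 0.28, so the numbers are not taken as pairs. On these 8 arrays the replicate block left 32 genes, 1 context gene and 1 member without overlap (7.07% of genes had none), against 130, 2 and 1 without the block. With each array left out, the counts were 418 to 571 genes, 0 members, 5 to 9 context genes, 0 to 1 members without overlap (Tbc1d4 without exercised s1m5 or sedentary s2m2, Aldoa without sedentary s2m5; 3.42% to 4.36% of genes), 0 correlated members and a median from -0.098 to -0.044. Of 1122 member values under the alternatives, 91 had the other sign, none of them called. The 1122 include alternatives that leave every estimate as it was, such as the threshold of 0.10 and the variance model. Those could not change a sign. The 8 members that kept their sign throughout were Slc2a1, Tbc1d1, Tbc1d4, Hk2, Pfkl, Pfkfb3, Pgam1 and Slc16a1. Causes were not tested, apart from the fewer arrays or altered tests that an alternative brings by construction. The number of arrays limits the precision.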

Other observations

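Among the 68 sets of 6 values (34 members in 2 groups), no array stood apart from the other 5 by Dixon's test, where chance gives about 1 in 20. Pfkfb3 had the widest difference in SD between the groups of all 34 members, with an SD of 0.62 in sedentary and 0.24 in exercised muscle. The 2 sedentary arrays with the highest Pfkfb3, s1m6 and s2m2, were also those with the lowest slow fibre score, at -1.17 and -1.15. Over the 12 arrays Pfkfb3 and that score, with group means removed, correlated at r = -0.55 (permutation p = 0.13, adjusted p = 0.33) and rho = -0.48 (permutation p = 0.17, adjusted p = 0.38). These 2 arrays were also the farthest from the median score. Without them r was -0.19 when the group means of all 12 arrays were kept. With group means taken anew over the remaining arrays r was 0.01 (permutation p = 0.97, adjusted p = 0.97), so the value rests largely on those 2 mice.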
